A study of Mus musculus with 24 samples.

Results

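The genes described here are 37 members of the unfolded protein response of the endoplasmic reticulum (ER) and of the degradation route that removes misfolded proteins from it, among 25662 genes that could be tested. They were chosen by gene name, and all 37 were measured. By role they comprised 4 sensors and transcription factors, 12 chaperones and cochaperones, 7 enzymes of disulfide bond formation, 10 components of ER-associated degradation, and 4 genes of protein translocation and export. Their mRNA was read on 24 one-colour microarrays, 1 per culture, in macrophages differentiated from mouse bone marrow. M-CSF, which drives marrow precursors to become macrophages, had been present at 20 ng/ml during the 6 days of culture that came before stimulation. KO cells came from Slc2a1M-/- mice, which carry LysMCre together with Slc2a1fl/fl, and WT cells came from the Slc2a1 fl/fl floxed control mice, so both genotypes carried floxed alleles of the glucose transporter gene Slc2a1 and the Cre driver, which acts in myeloid cells, stood in KO mice. In each genotype, cells were left unstimulated (M0), given LPS at 5 ng/ml plus IFNγ at 10 ng/ml (M1), or given IL-4 at 10 ng/ml (M2), each for 24 h, giving KO M0, KO M1, KO M2, WT M0, WT M1 and WT M2 with 4 biological replicates each. The ages of the mice were not given in the sources used here.

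The unfolded protein response adjusts the folding capacity of the ER to its load. The membrane sensors IRE1α (Ern1), PERK (Eif2ak3) and ATF6 (Atf6) are held inactive by the chaperone BiP (Hspa5) and are released when unfolded proteins accumulate; IRE1α then splices the mRNA of the transcription factor XBP1, PERK slows translation and raises ATF4, and ATF6 is cleaved to give a transcription factor. XBP1 and ATF6 raise transcription of chaperones, disulfide enzymes and degradation factors, partly through the ER stress response element (ERSE) and the related ERSE-II in promoters, and secretory cells such as macrophages use this system for their cytokines and surface proteins. The arrays measured mRNA level only, so neither splicing of Xbp1 nor cleavage of ATF6 was measured.

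The elements found in the promoters are shown first, since their holders recur below. Promoter windows from 250 bases before to 50 bases after the gene start were taken from RefSeq (GRCm38.p6) for 32 of the 37 genes, all but Atf6, Hyou1, Manf, Derl1 and Sec61a1. The windows were searched on both strands for the ERSE (CCAAT and CCACG separated by 9 bases), the ERSE-II (ATTGG and CCACG separated by 1 base), the XBP1-type core TGACGTGG (the unfolded protein response element, UPRE) and the ATF4-type core TGATGNAA. The elements are written in the orientation of the motif, with its fixed letters in capitals, and positions are counted from the gene start as 0.
Calr ERSE: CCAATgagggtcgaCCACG
Canx ERSE: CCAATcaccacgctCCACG
Creld2 ERSE: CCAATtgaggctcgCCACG
Derl3 ERSE: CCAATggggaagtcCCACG
Dnajc3 ERSE: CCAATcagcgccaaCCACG
Ero1lb ERSE: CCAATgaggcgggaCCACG
Hsp90b1 ERSE, distal: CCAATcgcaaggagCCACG
Hsp90b1 ERSE, proximal: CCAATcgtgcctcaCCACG
Hspa5 ERSE: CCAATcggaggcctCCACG
Pdia6 ERSE: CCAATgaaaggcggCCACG
Syvn1 ERSE: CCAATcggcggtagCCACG
Dnajb11 ERSE-II: ATTGGcCCACG
Herpud1 ERSE-II: ATTGGgCCACG

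The ERSE was present in 10 of the 32 windows (31.2%), against 37 of 27025 genes with a window (0.137%), and the ERSE-II in 2 of 32 (6.25%), against 0.0444% of genes. The UPRE core was found in 1 window, that of Sec24d at -26 to -19, against 0.714% of genes, and the ATF4-type core in 1, that of Herpud1 at -112 to -105, against 4.51%. The ERSE lay at -65 to -47 in the window of Hspa5 and at -156 to -138 in that of Derl3, where it reads on the strand opposite to the gene, and the ERSE-II lay at -52 to -42 in that of Herpud1. A match is a description of the letters in the window and no evidence of binding. The 250 bases upstream of the gene start are given for these genes because BiP is the sensors' regulator and Derl3 and Herpud1 had the largest differences between genotypes. The sequences are on the plus strand of chr2:34771840-34772089, chr10:75893148-75893397 and chr8:94386179-94386428, with the element in capitals.
Hspa5: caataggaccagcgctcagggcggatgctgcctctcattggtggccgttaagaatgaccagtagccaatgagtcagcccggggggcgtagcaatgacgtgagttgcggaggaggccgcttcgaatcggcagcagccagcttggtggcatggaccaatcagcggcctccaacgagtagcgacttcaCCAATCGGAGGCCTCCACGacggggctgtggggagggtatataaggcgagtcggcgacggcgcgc
Derl3: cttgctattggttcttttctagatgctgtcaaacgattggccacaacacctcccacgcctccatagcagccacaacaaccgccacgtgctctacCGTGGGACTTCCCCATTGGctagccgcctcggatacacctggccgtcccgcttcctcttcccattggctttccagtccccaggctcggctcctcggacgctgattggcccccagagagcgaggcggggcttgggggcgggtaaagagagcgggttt
Herpud1: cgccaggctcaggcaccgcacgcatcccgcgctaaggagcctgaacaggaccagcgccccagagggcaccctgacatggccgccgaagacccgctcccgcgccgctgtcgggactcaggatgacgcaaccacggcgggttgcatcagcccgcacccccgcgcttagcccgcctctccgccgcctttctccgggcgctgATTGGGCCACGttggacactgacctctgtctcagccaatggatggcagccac

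The share of probes brighter than background ranged from 52.5% to 71.4% per array, and the 75th percentile of intensity, used to scale each array, ranged from 2291 to 4905 units. It was lowest in KO M1, at 2386 ± 115 units against 3141 ± 463 units in WT M1 (SD, n = 4 each). The arrays lay on 3 slides, each with 1 complete set of the 6 groups and 1 further KO and WT pair. The 6 further-pair arrays stood apart: none of the 3 Y-linked genes examined was detected there, whereas the other 18 arrays all detected at least 1, so the main count is given with and without these 6. The Slc2a1 probe did not pass between KO and WT in any state (KO minus WT -0.34 ± 0.34 in M0, 0.30 ± 0.34 in M1 and -0.14 ± 0.34 in M2 on the log2 scale ± SE, limma adjusted p = 1.00, 0.508 and 1.00), and it tests the labels only if it lies in the deleted exons, which no source used here names. Lyz2, the locus that carries Cre, was lower in KO in every state (-2.67, -3.33 and -4.00, limma adjusted p = 0.00247, 4.17e-07 and 1.21e-05). The KO arrays were not alike in this. On those of the further pairs Lyz2 stood at 5.79 in M0, 4.69 in M1 and 4.28 in M2. On the other KO arrays it stood at 3.79 to 4.10, 3.54 to 4.18 and 2.49 to 2.85. All 8 macrophage markers, Csf1r, Cd68 and Cd14 among them, were well above background on every array.

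Values below are log2 intensities relative to the 75th percentile of the array. Differences are log2 differences ± the standard error from limma, with p-values adjusted over all 25662 genes by Benjamini-Hochberg, and a gene passed with an adjusted p under 0.05. The number of arrays limits the precision. In bulk RNA of this kind, fewer cells of a type and less RNA per cell cannot be told apart.

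The question for each state was whether the ER genes differed between cells labelled KO and floxed controls. In M1, 31 of the 37 genes were higher in KO and 0 were lower (limma), against 23.9% of all genes higher and 19.8% lower (43.8% in either direction). The median difference of the 37 was 0.95, against 0.17 for all genes. The largest were Derl3, about 62.4-fold higher in KO, Herpud1, 9.07-fold, Sdf2l1, 6.57-fold, Dnajb9, 5.73-fold, and Hyou1, 5.23-fold. In 30 of the 37, every measured KO array lay above every measured WT array, against 23.6% of all genes (20.2% lay wholly below). The exceptions were Eif2ak3, Dnajc10, Pdia3, P4hb, Derl2, Os9 and Sec24d. Sel1l, among the 30, had 3 measured KO arrays. The median difference within replicates 1 to 4 was 1.1, 0.92, 0.86 and 0.88, and within slides 1 to 3 it was 1.1, 0.93 and 0.88. Without the 6 arrays of the further pairs, 32 genes were higher in KO and the median was 0.96. Between-array scaling set part of these values: with quantile normalization 27 of the 37 were higher, P4hb and Derl2 passed as lower, Xbp1, Dnajb11, Pdia3 and Syvn1 no longer passed, and the median of the 37 was 0.63 against -0.03 for all genes. Of all genes that passed, 54.7% were higher in KO, against 42.8% with quantile normalization and 67.0% with no filter on dim probes.

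**Figure D1:**
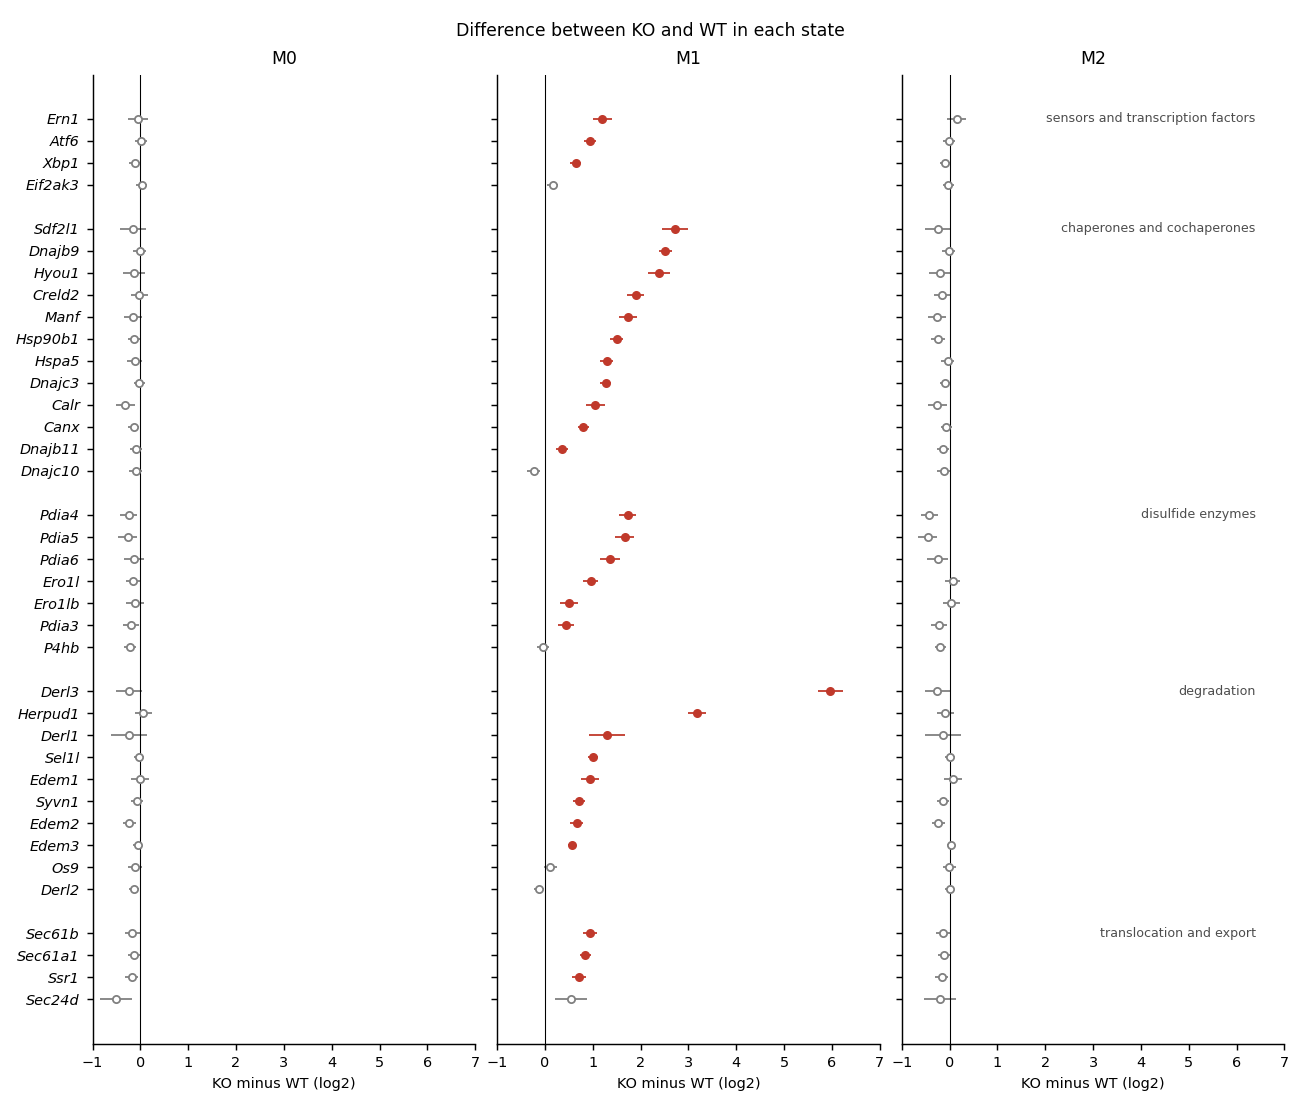
Difference between KO and WT (log2, x axis) of each of the 37 genes (rows, by role) in M0, M1 and M2, with bars for the standard error and filled red points where the adjusted p was under 0.05. In M1, 31 points are filled and all lie right of 0, while none is filled in M0 or M2.

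Among the sensors and transcription factors, 3 of 4 were higher in KO M1, with a median difference of 0.79. Ern1, the kinase and nuclease that splices Xbp1, had levels of 2.87, 2.68, 2.96 and 2.48 in KO M1, against 1.53, 1.54, 1.57 and 1.54 in WT M1. All 4 KO arrays lay above the WT arrays, which differed by less than 0.05 among themselves, and the difference was 1.2 ± 0.20 (limma adjusted p = 5.39e-05). Atf6, the sensor that is cleaved to a transcription factor, had levels of 3.33, 2.79, 3.09 and 2.83 in KO M1 and 2.16, 1.95, 2.07 and 2.07 in WT M1. The groups did not overlap and the difference was 0.95 ± 0.13 (limma adjusted p = 3.33e-06).
Xbp1, the transcription factor of the IRE1α branch, had levels of 5.74, 5.31, 5.37 and 5.47 in KO M1 and 4.74, 4.81, 4.90 and 4.89 in WT M1. Every KO array was higher, by 0.64 ± 0.11 on average (limma adjusted p = 9.30e-05), but with quantile normalization the difference was 0.21 and did not pass. Eif2ak3, which encodes PERK, did not pass: its levels were -0.21, -0.49, -0.29 and -0.49 in KO M1 and -0.62, -0.72, -0.13 and -0.67 in WT M1. The ranges overlapped, replicate 3 of WT M1 being the highest of all 8 arrays, and the difference was 0.16 ± 0.12 (limma adjusted p = 0.271, 95% interval -0.08 to 0.41).

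Chaperones and cochaperones were the group with the highest median, 1.4, and 11 of 12 were higher in KO M1. Sdf2l1, a cochaperone of BiP, had levels of 4.95, 4.26, 4.32 and 4.68 in KO M1, against 2.02, 1.50, 2.15 and 1.68 in WT M1. The lowest KO array stood more than 2 log2 units above the highest WT array, and the difference was 2.72 ± 0.28 (limma adjusted p = 8.38e-08). Dnajb9, a J-domain cochaperone that is known to repress IRE1α, had levels of 4.67, 4.07, 3.92 and 4.15 in KO M1 and 1.61, 1.80, 1.54 and 1.77 in WT M1. It separated the groups without overlap, by 2.52 ± 0.13 (limma adjusted p = 3.16e-11). Hyou1, a large chaperone that exchanges nucleotide on BiP, had levels of -0.46, -0.97, -1.40 and -0.66 in KO M1 and -3.06, -3.36, -3.44 and -3.18 in WT M1. The difference was 2.39 ± 0.23 with no overlap (limma adjusted p = 4.30e-08).

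Hspa5 (BiP), singled out after its values were seen, had levels of 7.37, 7.26, 7.01 and 7.42 in KO M1 and 6.04, 5.85, 5.90 and 6.10 in WT M1. The groups were apart by 1.29 ± 0.14, or 2.45-fold (limma adjusted p = 2.58e-07). The other chaperones that passed ranged from Creld2, a disulfide-linked chaperone of the ER (1.90 ± 0.18), and Manf, a secreted ER stress protein (1.73 ± 0.19), through Hsp90b1 (GRP94, 1.50 ± 0.13), Dnajc3 (1.27 ± 0.12), calreticulin (Calr, 1.05 ± 0.20) and calnexin (Canx, 0.80 ± 0.11), to Dnajb11 (0.36 ± 0.12). Dnajb11 kept its call under neither quantile normalization nor the average of its probes, and lost it without any 1 of 4 single arrays, replicates 1 and 4 of KO M1 and 2 and 4 of WT M1. Dnajc10, a J-domain protein with reductase activity, did not pass. Its levels were 1.31, 0.94, 0.99 and 1.26 in KO M1 and 1.59, 1.05, 1.61 and 1.21 in WT M1, overlapping, with a difference of -0.24 ± 0.14 (limma adjusted p = 0.179, 95% interval -0.53 to 0.05).

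**Figure D2:**
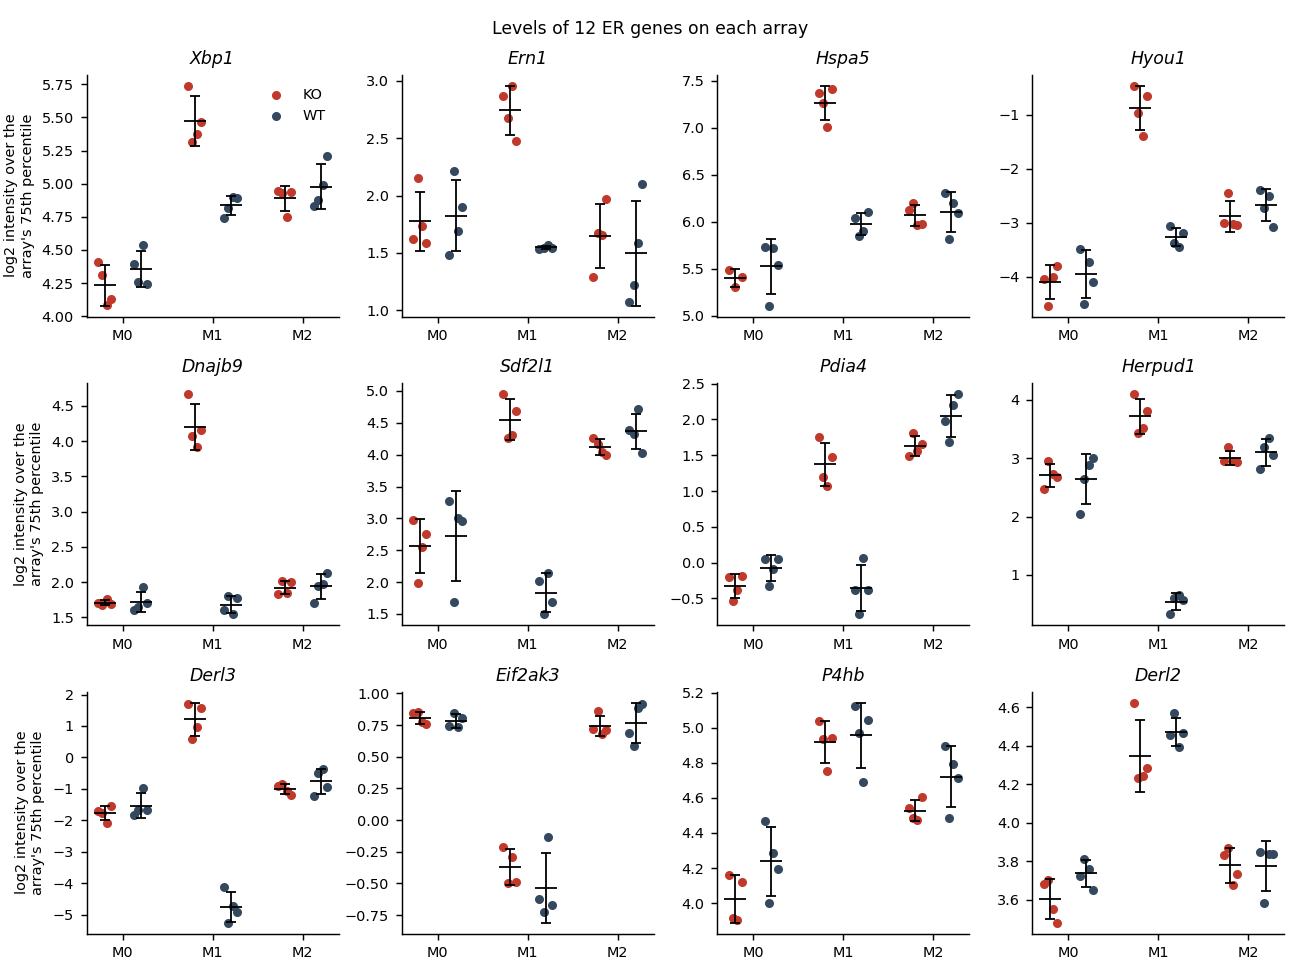
Levels (log2 intensity over the array's 75th percentile, y axis) of 12 of the genes on each array, with KO in red left of WT in dark blue in each state and bars for the mean ± SD of the 4 arrays. Derl3 stood at 0.57 to 1.71 in KO M1 and at -5.25 to -4.13 in WT M1, while P4hb, Derl2 and Eif2ak3 overlapped between genotypes in every state.

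Of the disulfide enzymes, 6 of 7 were higher in KO M1, with a median of 0.95. Pdia4, a protein disulfide isomerase, had levels of 1.75, 1.2, 1.07 and 1.47 in KO M1 and -0.38, -0.72, 0.07 and -0.39 in WT M1. No array overlapped and the difference was 1.73 ± 0.18 (limma adjusted p = 8.43e-08). Pdia5, another isomerase of the family, had levels of 0.10, -0.57, -0.62 and -0.18 in KO M1 and -2.22, -1.70, -2.13 and -1.87 in WT M1, again without overlap and with a difference of 1.66 ± 0.19 (limma adjusted p = 4.36e-07). Pdia6, an isomerase that binds BiP, had levels of 7.14, 6.68, 6.08 and 6.89 in KO M1 and 5.39, 5.12, 5.47 and 5.39 in WT M1. Replicate 3 was the lowest KO array and still above every WT array, and the difference was 1.35 ± 0.21 (limma adjusted p = 2.23e-05).
Ero1l and Ero1lb, the oxidases that recharge the isomerases, were higher by 0.95 ± 0.15 and 0.50 ± 0.18, and Pdia3, the isomerase that works with calnexin and calreticulin, by 0.43 ± 0.16. Ero1lb lost its call without any 1 of 5 single arrays (replicates 1, 3 and 4 of KO M1 and 2 and 4 of WT M1) and Pdia3 without any 1 of 5 (replicates 1 and 4 of KO M1 and 2, 3 and 4 of WT M1). P4hb, the founding isomerase of the family, did not pass. It had levels of 5.04, 4.93, 4.75 and 4.94 in KO M1 and 5.12, 4.97, 4.69 and 5.04 in WT M1, which overlapped, with a difference of -0.04 ± 0.12 (limma adjusted p = 0.812, 95% interval -0.29 to 0.21).

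In the degradation group, 8 of 10 were higher in KO M1 (median 0.83). Derl3, a derlin of the channel through which proteins leave the ER, had levels of 1.71, 0.57, 0.97 and 1.58 in KO M1 and -4.13, -5.25, -4.72 and -4.92 in WT M1. It was well above background on all 24 arrays, the closest KO and WT arrays were more than 4 log2 units apart, and the difference was 5.96 ± 0.27 (limma adjusted p = 9.52e-12). Its single probe lay on chromosome 10 at 75358606 to 75358665 (mm9, plus strand). Herpud1, a membrane protein that assembles the degradation complex, had levels of 4.10, 3.44, 3.52 and 3.81 in KO M1, against 0.33, 0.61, 0.65 and 0.56 in WT M1. The difference was 3.18 ± 0.18, without overlap (limma adjusted p = 8.09e-11). Derl1, a second derlin, had levels of 4.51, 4.18, 4.03 and 3.25 in KO M1 and 2.98, 1.90, 2.91 and 2.98 in WT M1.
The Derl1 difference of 1.3 ± 0.37 (limma adjusted p = 0.00708) had the widest standard error of the 37, and replicate 2 of WT M1 stood about 1 log2 unit below the other WT arrays. Sel1l, the adaptor of the ligase Syvn1 (HRD1), was higher by 1.01 ± 0.11 with 3 KO arrays, Syvn1 by 0.72 ± 0.13, and Edem1, Edem2 and Edem3, which mark misfolded glycoproteins for removal, by 0.95 ± 0.19, 0.66 ± 0.14 and 0.56 ± 0.09. Derl2 did not pass, with levels of 4.62, 4.23, 4.24 and 4.28 in KO M1 and 4.46, 4.57, 4.39 and 4.46 in WT M1. Its ranges overlapped and the difference was -0.13 ± 0.10 (limma adjusted p = 0.320, 95% interval -0.33 to 0.08). Os9, a lectin that hands misfolded glycoproteins to the ligase, had levels of 4.73, 4.53, 4.42 and 4.65 in KO M1 and 4.66, 4.36, 4.36 and 4.51 in WT M1. Each was close to its partner and the difference was 0.11 ± 0.14 (limma adjusted p = 0.550, 95% interval -0.18 to 0.41).

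For translocation and export, 3 of 4 were higher in KO M1 (median 0.78). Sec61b, a subunit of the channel through which new proteins enter the ER, had levels of 5.50, 5.12, 4.75 and 5.33 in KO M1 and 4.37, 4.06, 4.23 and 4.28 in WT M1. The difference was 0.94 ± 0.15 with no overlap (limma adjusted p = 3.26e-05). Sec61a1, the pore-forming subunit, had levels of 5.78, 5.37, 5.17 and 5.51 in KO M1 and 4.62, 4.59, 4.47 and 4.76 in WT M1, apart by 0.85 ± 0.12 (limma adjusted p = 6.57e-06), a call that was lost when spots marked as outliers were kept. Ssr1, a subunit of the complex that assists translocation, had levels of 4.62, 4.38, 4.22 and 4.46 in KO M1 and 3.82, 3.71, 3.64 and 3.64 in WT M1, with a difference of 0.71 ± 0.14 (limma adjusted p = 3.19e-04).
All arrays of these 3 genes were higher in KO M1. Sec24d, a coat subunit of the vesicles that leave the ER and the holder of the UPRE core, had levels of 2.33, 1.44, 1.26 and 1.77 in KO M1 and 1.26, 1.24, 0.90 and 1.19 in WT M1. The highest WT array equalled the lowest KO array to 2 decimals, and the difference of 0.55 ± 0.33 did not pass (limma adjusted p = 0.193, 95% interval -0.14 to 1.25).

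Markers of other cell types were read beside these differences. Over the plasma cell list, secretory cells known for high ER capacity, the summed level relative to the 75th percentile was 17.3 to 27.1 in KO M1 and 4.33 to 9.61 in WT M1. Of its 5 genes, Sdc1 carried most of the sum (4.45 ± 0.30 in KO M1 and 2.57 ± 0.54 in WT M1, SD, n = 4 each), while Tnfrsf17 was not well above background on any M1 array and Mzb1 was on 3 of 4 KO M1 arrays and 2 of 4 WT M1 arrays. The summed level of the 8 neutrophil genes was 47.4 to 121 in KO M1 and 14.0 to 48.9 in WT M1, with Ly6g lower in KO M1 (-0.81 ± 0.94) than in WT M1 (1.89 ± 0.71). That of the 5 B cell genes was 0.294 to 0.379 in KO M1 and 0.283 to 1.21 in WT M1. The sums were also higher in KO M1, without overlap, for the 5 dendritic cell genes (43.5 to 67.0 in KO M1 and 24.5 to 42.3 in WT M1), the 5 T cell genes (3.67 to 4.97 in KO M1 and 2.50 to 3.50 in WT M1) and the 5 mast cell or basophil genes (0.954 to 2.36 in KO M1 and 0.244 to 0.536 in WT M1). Siglech gave most of the first sum (5.73 ± 0.24 in KO M1 and 4.96 ± 0.45 in WT M1, SD, n = 4 each), and Xcr1, Cd3g, Cd8a and Mcpt4 were not well above background on any M1 array. The sums overlapped for the 5 fibroblast genes (0.533 to 2.71 in KO M1 and 0.615 to 0.907 in WT M1) and the 8 macrophage genes (440.3 to 642 in KO M1 and 618 to 751 in WT M1). The macrophage list includes Lyz2, the locus that carries Cre, at -3.33 for KO minus WT in M1. The part of these cell types in the ER differences was not tested.

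In the other states the ER genes gave no call. In M0, 0 of the 37 passed in either direction, against 0.0585% of all genes (0.00779% higher and 0.0507% lower), and 0 had an unadjusted limma p under 0.05. The differences ranged from -0.50 to 0.06, 3 of 37 lying above 0. Their median was -0.13, against -0.01 for all genes. No gene separated the genotypes without overlap in M0, against 0.647% of all genes with KO above and 1.71% with KO below. In M2, 0 passed, against 0.0468% of all genes (0.0195% higher and 0.0273% lower). An unadjusted limma p under 0.05 was found for 2, Pdia4 and Pdia5 (-0.42 ± 0.18 and -0.46 ± 0.19). The unadjusted counts have no share of all genes beside them and are description only. The differences in M2 ranged from -0.46 to 0.15, 7 of 37 lying above 0. Their median was -0.13, against 0.07 for all genes. Every KO array lay below every WT array for 2 of the 37 in M2, Pdia5 and Sec24d, and above for 0, against 0.401% and 1.78% of all genes. Derl3 was at -1.71, -1.76, -2.08 and -1.53 in KO M0 and -1.84, -1.67, -0.96 and -1.66 in WT M0, where the ranges overlapped, and at -0.92, -0.85, -1.07 and -1.20 in KO M2 and -1.24, -0.49, -0.37 and -0.93 in WT M2. 95% intervals of the 37 differences spanned -1.20 to 0.53 in M0 and -0.92 to 0.63 in M2, so differences of moderate size in single genes lay within them.

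The difference between genotypes was itself compared between states. It was larger in M1 than in M0 for 29 of the 37 genes and smaller for 0, against 15.7% and 13.6% of all genes (29.2% in either direction), and larger in M1 than in M2 for 30 and smaller for 0, against 13.4% and 15.7% (29% in either direction). Derl3 led both, at 6.20 ± 0.38 and 6.22 ± 0.38 (limma adjusted p = 6.27e-09 and 4.87e-09). Herpud1 followed, at 3.12 ± 0.26 and 3.27 ± 0.26 (limma adjusted p = 4.62e-08 and 3.90e-08), then Sdf2l1, at 2.88 ± 0.39 and 2.96 ± 0.39 (limma adjusted p = 9.92e-06 and 7.13e-06). Between M2 and M0 the difference passed for 0 of the 37 and for 0% of all genes in limma, with 0 of the 37 at an unadjusted p under 0.05. The 2 comparisons with M1 share the M1 arrays.

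Activation was then examined within each genotype. From M0 to M1, 34 of the 37 genes rose in KO cells and 2 fell, with a median of 1.35, against 32.5% and 23.3% of all genes (55.8% in either direction; median 0.25). In WT cells 13 rose and 9 fell, with a median of 0.19, against 23.4% and 22.9% of all genes (46.3% in either direction; median -0.01). The WT median was 0.04 without replicate 2 of WT M0, 0.10 without the 6 further-pair arrays and 0.05 with quantile normalization. The same 13 genes rose in both, Atf6, Xbp1, Hspa5, Hyou1, Dnajb11, Creld2, Manf, P4hb, Ero1l, Derl2, Edem2, Syvn1 and Sec61a1, against 16.8% of all genes. Of the rises in WT, that of Hspa5 (0.45) was lost with quantile normalization (0.25), without the 6 further-pair arrays (0.33), without replicate 2 of WT M0 (0.31), with outlier spots kept and in a fit of those groups alone. These settings concern its brightest probe. The dimmer probes of Hspa5 rose in WT by 0.73 and 0.65 and passed (limma p adjusted over all probes, 0.00495 and 0.0114). That of Sec61a1 (0.37) was lost with quantile normalization (0.16), without replicate 3 of WT M0 or replicate 4 of WT M1 (both 0.32), with the mean of its probes and with outlier spots kept, and that of Atf6 (0.46) with the mean of its probes (0.10). A further 15 rose in KO and did not pass in WT, among them Ern1, Dnajb9, Hsp90b1, Pdia4 and Derl1, against 12.4% of all genes. The 6 genes Dnajc3, Sdf2l1, Herpud1, Derl3, Sel1l and Sec61b rose in KO and fell in WT, against 3.29% of all genes. With quantile normalization the rises of Sel1l (0.0029) and Sec61b (0.02) in KO were lost. The fall of Sel1l in WT (-0.49) was lost with a filter on all 24 arrays (-0.19) and with the mean of its probes (-0.36), and that of Sdf2l1 in a fit of the WT M1 and WT M0 arrays alone. Eif2ak3 and Dnajc10 fell in both genotypes, against 14% of all genes. The 4 probes of Dnajc10 differed in this: in KO the brightest was at -0.82 and the others at 0.25, -0.29 and 0.32, and with their mean (-0.14) the fall in KO was lost. In WT the brightest was at -0.68 and passed, while the others, at -0.12, -0.39 and -0.23, did not.

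Hyou1 had the largest rise in KO, to -0.46, -0.97, -1.40 and -0.66 in KO M1, against -4.05, -4.53, -4.00 and -3.79 in KO M0 (3.22 ± 0.23, limma adjusted p = 2.82e-10). The corresponding change in WT was 0.69 ± 0.23 (limma adjusted p = 0.0186), a call lost without replicate 1 of WT M1 or replicate 2 of WT M0. The dimmer probes of Hyou1 differed in WT: that at 1.03 passed, while those at 0.46 and -0.15 did not. Ero1l rose in both genotypes: levels were 5.45, 5.17, 5.22 and 5.29 in KO M1, against 2.52, 2.22, 2.25 and 2.13 in KO M0 (3.00 ± 0.15, limma adjusted p = 2.55e-12), and 4.63, 4.46, 3.82 and 4.41 in WT M1 and 2.31, 2.15, 2.59 and 2.68 in WT M0 (1.90 ± 0.15, limma adjusted p = 3.22e-09). None of its M1 arrays overlapped with M0. Derl3 rose by 2.98 ± 0.27 in KO (limma adjusted p = 6.80e-09) and fell by 3.22 ± 0.27 in WT (limma adjusted p = 4.91e-09), so that its M0 levels, given above, lay between the KO and WT levels of M1. Herpud1 moved likewise: it had 4.10, 3.44, 3.52 and 3.81 in KO M1, against 2.47, 2.95, 2.74 and 2.68 in KO M0 (1.01 ± 0.18, limma adjusted p = 8.65e-05), and 0.33, 0.61, 0.65 and 0.56 in WT M1 and 2.04, 2.65, 2.89 and 3.01 in WT M0 (-2.11 ± 0.18, limma adjusted p = 1.06e-08).
Without overlap, Eif2ak3 fell by 1.18 ± 0.12 in KO and by 1.32 ± 0.12 in WT (limma adjusted p = 2.72e-08 and 1.24e-08). This is its brightest probe. The dimmer probe of Eif2ak3 passed in WT (-0.75) but not in KO (-0.25) (limma p adjusted over all probes, 8.54e-04 and 0.215). The fall of Sec61b in WT was -0.38 ± 0.15 (limma adjusted p = 0.0437) and was lost under several settings, given in the closing section.

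**Figure D3:**
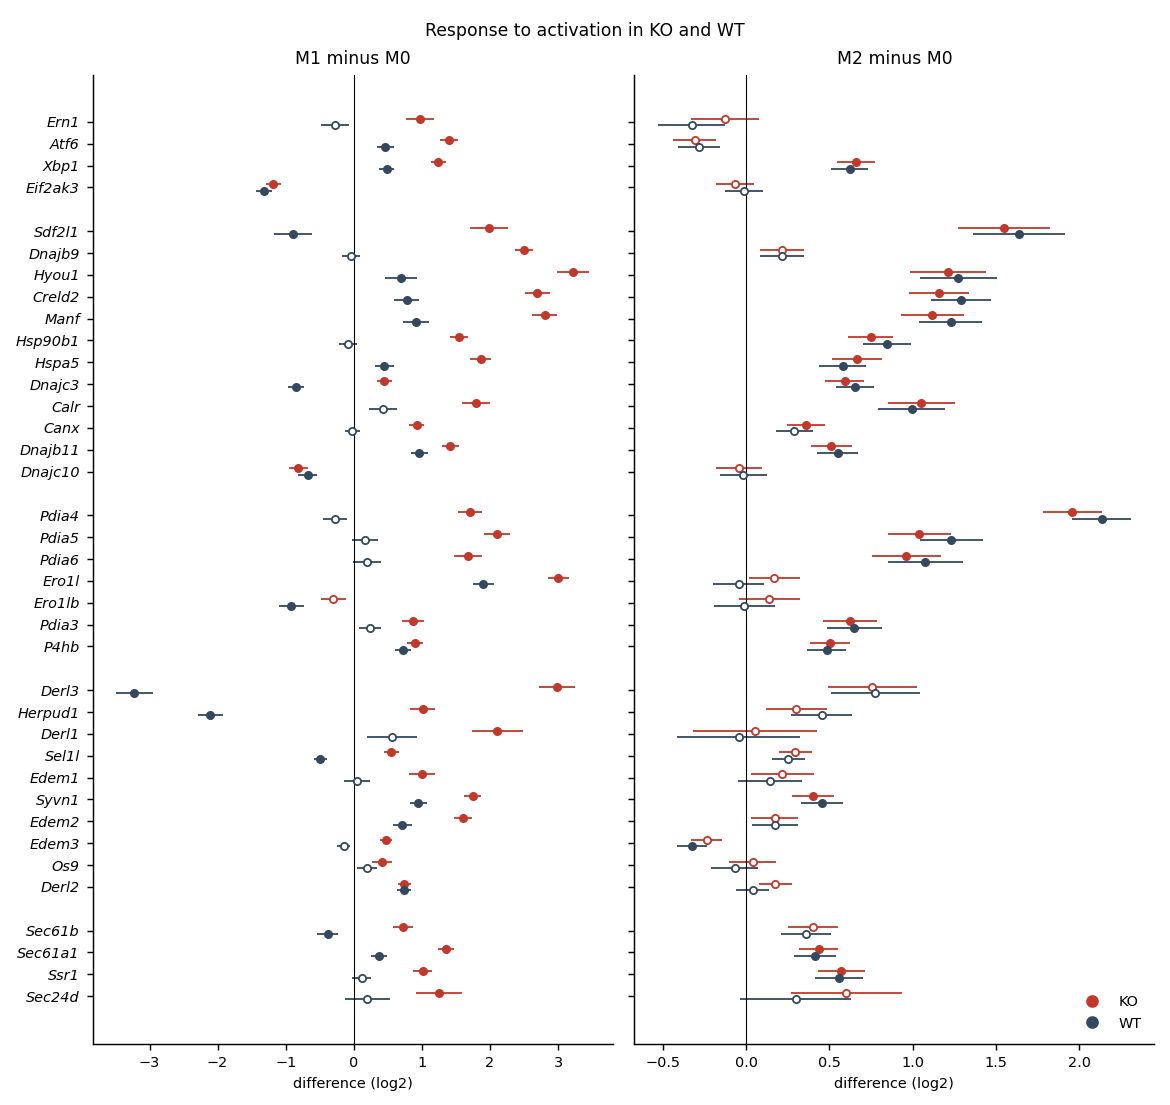
Change from M0 to M1 (left) and from M0 to M2 (right) of each gene (log2, x axis) in KO (red, upper of each pair) and WT (dark blue, lower), with bars for the standard error and filled points where the adjusted p was under 0.05. In M1 the KO points of Derl3 and Herpud1 lie right of 0 and their WT points left of it, while in M2 the points of a gene lie close together.

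With IL-4, chaperones and disulfide enzymes made up most of the genes that rose in both genotypes. From M0 to M2, 19 of the 37 rose in KO and 0 fell, with a median of 0.43, against 6.57% and 5.61% of all genes (12.2% in either direction; median -0.06). In WT 18 rose and 1 fell, with a median of 0.45, against 5.3% and 9.81% of all genes (15.1% in either direction; median -0.13). A fit of the WT M2 and WT M0 arrays alone gave 10 genes that rose and 0 that fell, and the same kind of fit in KO gave 18. The shares of all genes above belong to the fit over all arrays and are no base for these counts. In the fit over all arrays, the 18 that rose in WT also rose in KO, against 4.61% of all genes. Canx passed in KO (0.36 ± 0.11) but not in WT (0.29 ± 0.11), a difference that did not pass between genotypes. Its dimmer probe did the reverse, passing in WT (0.42) but not in KO (0.39) (limma p adjusted over all probes, 0.0344 and 0.0521). Of the chaperones 10 of 12 rose in KO, and of the disulfide enzymes 5 of 7, whereas in the degradation group 1 of 10 rose, Syvn1 (0.40 ± 0.13). Syvn1 lost that call without any 1 of the 8 KO arrays, and Canx without any 1 of 7 of them. In WT the rise of Sec61a1 (0.41) was lost with quantile normalization (0.29) and without the 6 further-pair arrays (0.37). It was also lost without replicate 3 or 4 of WT M0 or replicate 1 or 4 of WT M2.

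Pdia4 rose most with IL-4, to 1.49, 1.81, 1.56 and 1.66 in KO M2, against -0.21, -0.54, -0.39 and -0.18 in KO M0 (1.96 ± 0.18, limma adjusted p = 2.00e-07). It stood at 1.98, 1.68, 2.2 and 2.35 in WT M2 and 0.05, -0.33, -0.10 and 0.05 in WT M0 (2.13 ± 0.18, limma adjusted p = 5.36e-08). No M2 array overlapped with M0 in either genotype. Sdf2l1 had 4.27, 4.16, 4.05 and 3.99 in KO M2 and 2.98, 1.99, 2.55 and 2.75 in KO M0 (1.55 ± 0.28, limma adjusted p = 6.99e-04), and 4.38, 4.33, 4.71 and 4.03 in WT M2 and 3.27, 1.69, 3.00 and 2.96 in WT M0 (1.64 ± 0.28, limma adjusted p = 3.28e-04). Replicate 2, a further-pair array in M0, was the lowest M0 array of both genotypes. Hyou1 rose by 1.21 ± 0.23 in KO (limma adjusted p = 0.00126), and Creld2 rose by 1.29 ± 0.18 in WT (limma adjusted p = 4.19e-05), each without overlap of its arrays.
Edem3 was the 1 gene that fell in WT M2, by 0.33 ± 0.09 (limma adjusted p = 0.0201), and it lost the call without replicate 3 of WT M0 or replicate 2 of WT M2. This is its brightest probe. Its dimmest probe passed in both WT (-0.92) and KO (-1.03) (limma p adjusted over all probes, 0.00660 and 0.00327). Another probe of Edem3, at -0.36 in WT and -0.31 in KO, passed in neither.

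Probes of the same gene were compared, since each gene above is represented by its brightest probe. Of the 73 kept probes of the 37 genes, 56 were higher in KO M1 and 0 lower, against 25.5% and 19.5% of all probes. Of the 24 genes read by several kept probes, 22 had all probes on the same side of 0, and Dnajc10 and P4hb did not. Every probe passed as higher in 15 of the 24, among them Ern1, whose 5 probes ranged from 1.2 to 4.00, Hspa5, from 1.29 to 2.22, and Hyou1, from 1.68 to 3.53. The brightest probe gave the smallest difference in 14 of the 24, and Herpud1 (3.18 and 3.17) and Xbp1 (0.61 to 0.65) agreed closely between probes. A dimmer probe of Edem1 (0.32), Edem3 (0.17), Dnajb11 (0.11), Ero1lb (0.19) and Pdia3 (0.53) did not pass.

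**Figure D4:**
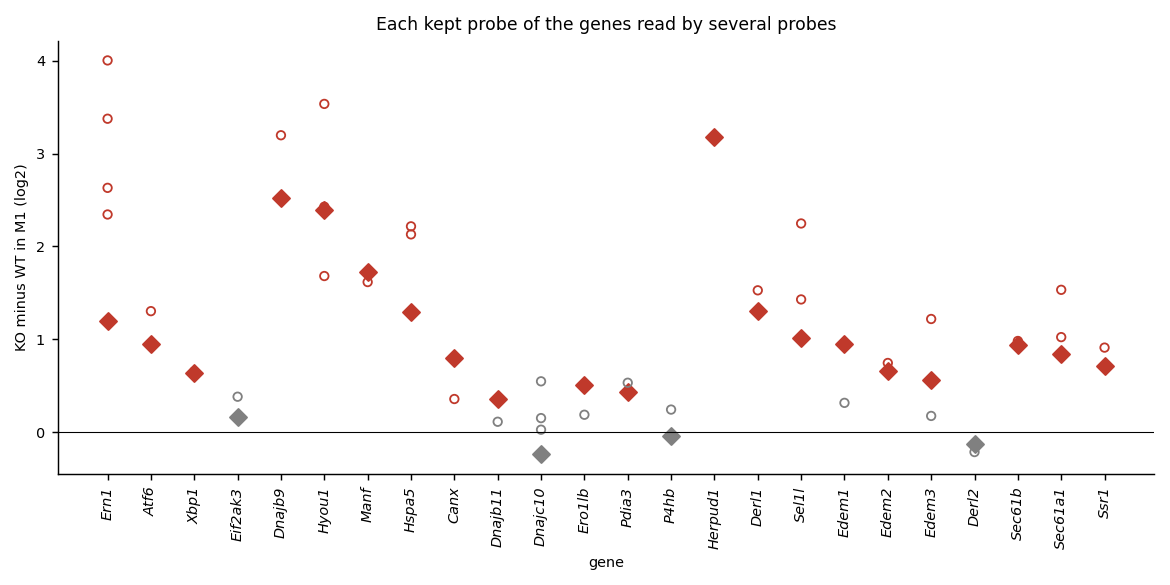
Difference between KO and WT in M1 (log2, y axis) at every kept probe of the 24 genes read by several, with the brightest probe as a diamond and the others as open circles, red where the adjusted p was under 0.05. Ern1 spans 1.2 to 4.00, while the probes of Herpud1 coincide.

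The holders of the ERSE or ERSE-II, 12 genes, were compared with the 20 genes whose window held neither, as a description. In M1, 12 of 12 holders and 14 of 20 others were higher in KO, with medians of 1.28 and 0.69, and the ranges, 0.36 to 5.96 and -0.24 to 2.72, overlapped. In M2 minus M0, 9 of 12 holders and 7 of 20 others rose in KO, against 6.57% of all genes. In WT 8 and 7 rose, against 5.3% of all genes. Of the 37 genes outside the list whose windows held either element, 22 were measured, of which 6 were higher in KO M1 and 3 lower, near the 23.9% and 19.8% of all genes, with a median of 0.12 and with Krtcap2 (1.47), Acacb (-1.63) and Alg12 (-1.07) among them.

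Other genes of the pathway were described by the same fit for 164 genes in 9 lists, of which 0 passed between KO and WT in M0 and in M2, with 10 and 2 at an unadjusted limma p under 0.05. Their counts in M1 stand against 23.9% of all genes higher and 19.8% lower. Those of glycan trimming and further folding, and of ATF6 processing and other ER-bound factors, lay near these shares. In the PERK branch, 7 of 10 were higher in KO M1 and 0 lower (median 1.67). These were led by Chac1, a glutathione-degrading enzyme (3.27 ± 0.68), Asns, asparagine synthetase (3.21 ± 0.61), and Ppp1r15a, a phosphatase subunit that restores translation (2.76 ± 0.29), with limma adjusted p = 4.85e-04, 1.86e-04 and 1.13e-07. Among factors of ATF6 processing and other ER-bound factors, 3 of 10 were higher and 3 lower (median 0.20), with Wfs1, an ER membrane protein, at 3.40 ± 0.15 and the transcription factors Creb3l1 and Creb3l3 at -1.71 ± 0.26 and -1.34 ± 0.21. Of the translocon, signal peptidase and oligosaccharyltransferase genes, 19 of 30 were higher and 4 lower (median 0.51), led by Krtcap2 (1.47 ± 0.15), Spcs2 (1.46 ± 0.13) and Srp68 (1.39 ± 0.09). Glycan trimming and further folding gave 8 of 24 higher and 6 lower (median 0.14), with Cnpy4 at -2.31 ± 0.12, Dnajc1 at 1.88 ± 0.16 and Uggt2 at -1.31 ± 0.27.
Further disulfide enzymes gave 5 of 15 higher and 6 lower (median -0.05), with Txndc16 at 1.19 ± 0.24, Txndc11 at 1.04 ± 0.12 and Tmx2 at -0.95 ± 0.12. Further degradation factors gave 12 of 28 higher and 7 lower (median 0.21), with Vimp at 1.13 ± 0.11, Ubxn4 at 1.1 ± 0.10 and Rhbdd1 at 1.09 ± 0.11. COPII export genes, to which Sec24d belongs, gave 13 of 24 higher and 0 lower (median 0.40), with Mcfd2 at 0.94 ± 0.15, Lman2 at 0.91 ± 0.10 and Kdelr3 at 0.90 ± 0.31.

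**Figure D5:**
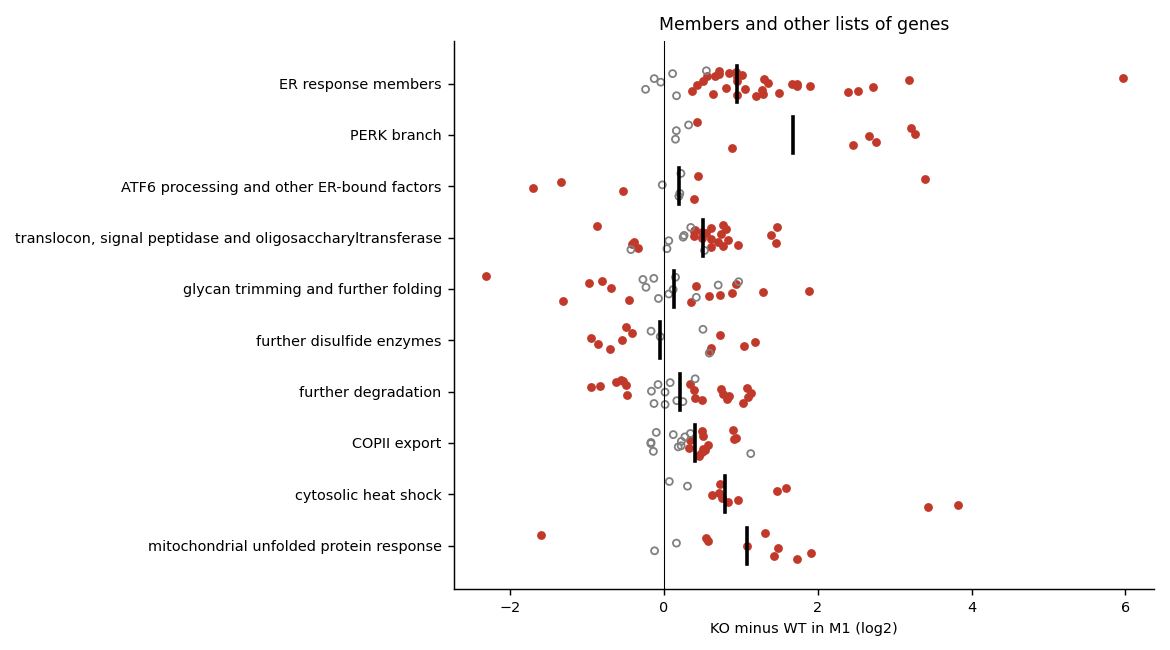
Difference between KO and WT in M1 (log2, x axis) of the 37 genes and of the genes of 9 further lists (rows), with filled red points where the adjusted p was under 0.05, open points where it was not, and black bars at the median. The medians lie between -0.05 and 1.67, and the 37 genes have theirs at 0.95.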

How the data were processed

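RNA of 24 macrophage cultures, 4 in each of 6 groups, was hybridised to Agilent 1-colour arrays. The deposited scanner files hold the processed signal, an intensity on a linear scale from which a background surface had been subtracted and which had been detrended within the array, per the file headers. The headers name Feature Extraction 10.7.3.1 and the submitters' processing notes name version 9.1. Probe coordinates in the files are on mm9.

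After removal of spots marked as outliers, replicate spots were averaged per probe and log2 intensity was taken relative to the 75th percentile of each array. Probes well above background on at least 4 of 24 arrays were kept (38857 of 56605), the brightest stood for a gene, and 25662 genes remained, with 1751 single values missing. Differences were fitted in limma 3.58.1 under R 4.3.3 with 1 mean per group over all arrays (18 residual degrees of freedom) and Benjamini-Hochberg adjustment, and a call needed an adjusted p under 0.05. On simulated data for KO minus WT in M1 over 25662 genes, the fit recovered 52% of 100 genes changed by 1 log2 unit and 88% of 100 changed by 2, with 6 false calls. The changed genes were far fewer than the 43.8% of all genes that passed in the data. Values were drawn without slide or pair effects, so these rates need not hold for the data.

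The members, lists and rules were chosen with earlier results of these data known. In each role group, array values are given for the 3 largest differences in M1 that passed and for each gene that did not pass, and for other comparisons for the 3 largest that passed. A deposited value table (24 columns) was not used, since its identifiers do not match the probes. Replicates are biological per the labels; p-values measure the spread between these cultures. Within a state, the deviations of KO and WT arrays with the same replicate number correlated at 0.173 to 0.846. For replicates 3 and 4 in M0, 1 in M1 and 2 and 3 in M2, a WT array of another number correlated more. Same-number arrays also shared a slide, so these values cannot show that cultures were paired. The main fit held no pair term, and the numbers served for differences within replicates and as a block. Across states the correlations ran from -0.46 to 0.56, and the numbers were not taken to pair arrays.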

Additional observations from a re-analysis of the deposited data

Results flagged for a closer look

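The difference between KO and WT was compared between states by a test of its own, and it was larger in M1 than in M0 for 29 of the 37 ER genes and larger in M1 than in M2 for 30.

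Single arrays stood far from the other 3 of their group in 11 of 217 groups of 4 values (5.07%), and chance alone gives about 1 in 20. In M1 these were Canx at 5.62 and Derl2 at 4.62 in replicate 1 of KO, Derl1 at 1.90 in replicate 2 of WT, and Eif2ak3 at -0.13 in replicate 3 of WT. In M2 they were Xbp1 at 4.75 in replicate 3 of KO, Hyou1 at -2.45 and Herpud1 at 3.19 in replicate 2 of KO, Derl2 at 3.58 in replicate 2 of WT and Pdia5 at -1.19 in replicate 4 of WT. In M0 they were Calr at 4.28 in replicate 2 of KO and Canx at 4.35 in replicate 2 of WT. Of the 11, 4 were on arrays of the further pairs.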

How the results depend on the processing

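In M1, the count of ER genes higher in KO was 31 with the replicate number, the slide or the complete set as a block, and leaving out single arrays gave 28 to 31 with medians of 0.86 to 1.01; the replicate block changed no other count of calls by over 1.5 times. Leaving out single arrays gave 27 to 31 genes for M1 against M0 and 27 to 30 for M1 against M2 in the comparison of genotype differences, 35 to 36 for activation by LPS and IFNγ in KO and 20 to 22 in WT (median 0.04 to 0.27), and 16 to 19 for IL-4 in KO and 18 to 19 in WT. With quantile normalization 2 genes became lower in KO M1 with a median of 0.63, 1 became lower in each comparison of genotype differences with M1 (medians 0.77 and 0.77), the median rise from M0 to M1 in KO was 0.81, and from M0 to M2 in KO it was 0.32 with 1 gene lower. It turned Os9 from M0 to M1 in KO to -0.18, and the M2 change of Sec61a1 in WT was -0.15 with the mean of probes and -0.21 with outlier spots kept. The mean of probes left 1 gene lower from M0 to M1 and 1 from M0 to M2 in KO. From M0 to M2 in WT, 0 genes were lower with normexp, with no filter on dim probes, or in a fit of those groups alone (10 called, all 10 higher), and 0 to 1 without single arrays (0 without replicate 3 of WT M0 or replicate 2 of WT M2). Of single-gene results for KO minus WT in M1, 563 kept their call, 24 lost it and 0 reversed. The fall of Sec61b in WT M1 was lost with normexp, no filter, the slide block, a fit of those groups alone and without 6 single arrays. A filter on all 24 arrays left out Hsp90b1 and Pdia6. The cause of these shifts was not tested. The 37 genes were all marked well above background in every group. On the WT M1 arrays the dimmest probes so marked stood at -7.43 to -6.16, not far below the Derl3 levels given above. How background subtraction affects the size of the Derl3 difference was not tested.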

Other observations

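The stress responses of other compartments were read on the same arrays. Among cytosolic heat shock genes, 10 of 12 were higher in KO M1 than in WT M1 and 0 were lower, with a median of 0.79, against 23.9% of all genes higher and 19.8% lower. The inducible chaperones Hspa1b and Hspa1a were 3.83 ± 0.57 and 3.44 ± 0.47 higher (log2 ± SE, limma adjusted p = 1.28e-05 and 4.56e-06), and the small heat shock protein Hspb1 was 1.59 ± 0.51 higher (limma adjusted p = 0.0166). From M0 to M1, 12 of 12 of these genes rose in KO and 7 of 12 in WT, against 32.5% and 23.4% of all genes.

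Among genes of the mitochondrial unfolded protein response, 8 of 11 were higher in KO M1 and 1 was lower, with a median of 1.08. The mitochondrial chaperones Hspa9 and Hspd1 were 1.91 ± 0.19 and 1.73 ± 0.21 higher (limma adjusted p = 8.78e-08 and 9.98e-07), and the protease Htra2 was lower (-1.59 ± 0.16, limma adjusted p = 9.19e-08). From M0 to M1, 10 of 11 of these genes rose in KO and 1 fell, against 32.5% and 23.3% of all genes, and 3 of 11 rose in WT and 0 fell, with the first share near the 23.4% of all genes that rose.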
